A study of Homo sapiens with 12 samples.

Results

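TXNIP, the alpha-arrestins ARRDC1, ARRDC2, ARRDC3 and ARRDC4, and the glucose-sensing factors MLXIP, MLXIPL and MLX were followed through 12 RNA-seq libraries of the human cell line 769-P, which derives from a clear cell renal carcinoma. These 8 genes, of 60617 gene IDs in the count tables, were selected on their levels and fold changes in these same libraries, control groups included. Their levels, fold changes and counts of calls are therefore a description, given with no p-value, and they support nothing beyond themselves. The libraries form 4 groups of 3: cells given an siRNA (small interfering RNA) against the long non-coding RNA DRAIC (siDRAIC) with its own control (siDRAIC-NC), and cells given an siRNA to deplete hnRNPA2B1, a protein that binds RNA (sihnRNPA2B1), with its own control (sihnRNPA2B1-NC). What NC stands for, the siRNA sequences, the time after transfection and the glucose level of the medium are not given in the labels. All groups share the one cell line and RPMI1640 with 10% serum. Nothing in the labels says that replicates came from separate cultures, so a p-value here measures the spread among libraries, which may be technical.

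Alpha-arrestins are adaptor proteins that recruit ubiquitin ligases of the NEDD4 family to membrane proteins. TXNIP also binds thioredoxin, the small protein that keeps cysteines reduced, and both TXNIP and ARRDC4 restrain glucose uptake by taking glucose transporters off the cell surface. MondoA (encoded by MLXIP) and ChREBP (encoded by MLXIPL) pair with their partner MLX, enter the nucleus when glucose 6-phosphate builds up, and bind carbohydrate response elements of target promoters, among which TXNIP and ARRDC4 are textbook examples. ChREBP is known mainly from liver and fat, MondoA from muscle and many cell lines.

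The promoter windows of TXNIP and ARRDC4 are shown because these had the widest range of levels among the 8 genes. The windows run from 250 bases before to 50 after an annotated start and come from RefSeq (GRCh38.p14), where all 8 genes matched, with 11 windows. TXNIP start 1 is chr1:145996530-145996829 on the minus strand and ARRDC4 is chr15:97960453-97960752 on the plus strand. Capitals mark matches to 3 patterns: the E-box CACGTG, the CCAAT box on both strands, and a carbohydrate response element written as a pair of half-sites CACGNG with a spacer of 5 bases, each half-site in either orientation and free to be an E-box itself.
TXNIP: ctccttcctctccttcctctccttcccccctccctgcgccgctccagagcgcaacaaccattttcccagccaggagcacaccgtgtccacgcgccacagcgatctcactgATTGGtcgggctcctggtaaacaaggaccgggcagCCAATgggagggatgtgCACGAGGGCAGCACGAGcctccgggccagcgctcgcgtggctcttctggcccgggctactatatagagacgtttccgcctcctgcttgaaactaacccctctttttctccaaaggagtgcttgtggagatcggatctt
ARRDC4: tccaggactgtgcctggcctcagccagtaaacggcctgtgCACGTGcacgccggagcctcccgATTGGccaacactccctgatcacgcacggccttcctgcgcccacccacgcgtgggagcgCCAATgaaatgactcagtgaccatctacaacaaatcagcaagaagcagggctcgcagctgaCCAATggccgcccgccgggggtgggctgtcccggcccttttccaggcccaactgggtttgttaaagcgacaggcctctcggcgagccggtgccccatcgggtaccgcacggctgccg
The TXNIP window held the element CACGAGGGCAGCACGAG, from base -88 to base -72 relative to the start, with both half-sites reading CACGAG. A match to this pattern was found in 27 of 35116 windows in the table, or 0.0769%. It was flanked upstream by a CCAAT box at -105 to -101 and an inverted one at -140 to -136, a pattern present in 34.6% of all windows. The ARRDC4 window had an E-box at -210 to -205, a pattern in 7.26% of windows, and 3 CCAAT boxes, with no match to the full element as written here. Of the other windows, MLX had an E-box at -50 to -45, and 1 CCAAT box each lay in MLX, MLXIP, ARRDC1, the first window of ARRDC3 and the second of ARRDC2. These are matches of letters only and do not show binding.

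**Figure D1:**
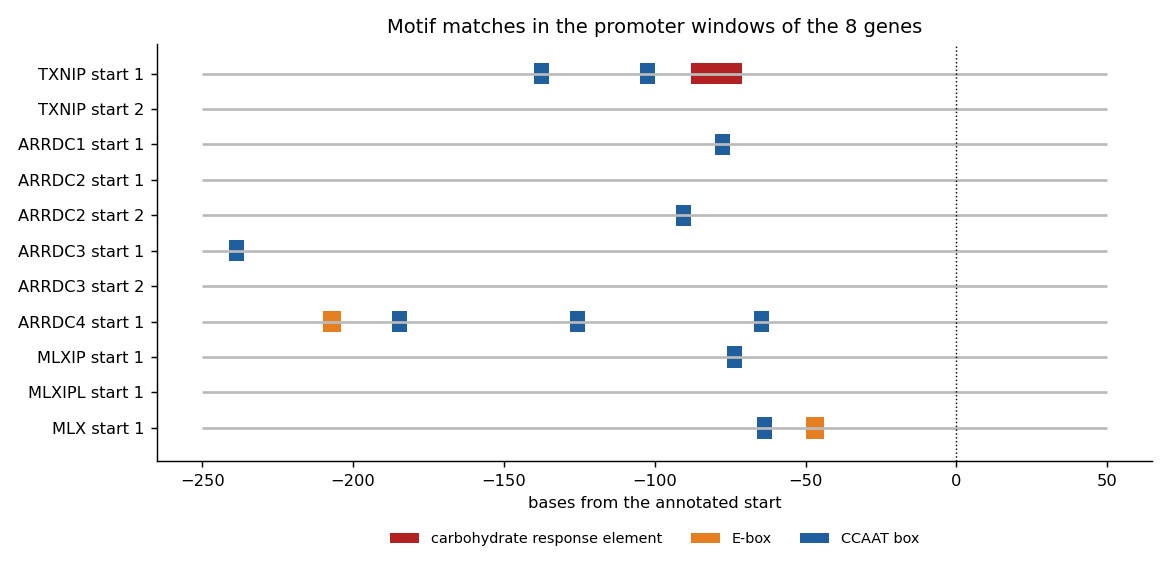
Positions of the 3 patterns in the 11 RefSeq promoter windows of the 8 genes, in bases from the annotated start (dotted line). The carbohydrate response element (red) appears in the first TXNIP window only, at -88 to -72, and E-boxes (orange) appear in ARRDC4 and MLX.

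Levels are given as CPM (counts scaled to a common library total), and summed counts per library ran from 36096920 to 42760528 in siDRAIC, 35221570 to 39921513 in siDRAIC-NC, 34064129 to 39367842 in sihnRNPA2B1 and 30798303 to 39362360 in sihnRNPA2B1-NC. A count of 3 in 1 library corresponds to 0.0702 to 0.0974 CPM. HNRNPA2B1 fell to 291 ± 16.7 CPM after its siRNA, against 419.6 ± 21.0 CPM in sihnRNPA2B1-NC (SD, n = 3 each; log2 fold change -0.56, SE 0.05, edgeR adjusted p = 2.16e-09). DRAIC had 3, 6 and 0 counts in the siDRAIC group and 2, 1 and 2 in siDRAIC-NC, 9 against 5 in all. After scaling to the library totals the ratio was 1.76, and its exact 95% interval, which covers counting error only, ran between 0.531 and 6.70. A knockdown of DRAIC was not detectable at this depth, and that group is called the libraries labelled siDRAIC. All 7 renal and epithelial markers were detected, PAX8 at 419 to 532 CPM in every library, and their summed level was 3118 to 3499 CPM in the libraries labelled siDRAIC, 3111 to 3702 in siDRAIC-NC, 1950 to 2032 in sihnRNPA2B1 and 1987 to 2052 in sihnRNPA2B1-NC. Blood, endothelial and hepatocyte markers summed to at most 0.170, 0.234 and 0.444 CPM, with CD3E at 0 throughout. The 3 fibroblast markers were mostly COL1A1 and PDGFRB, and COL1A2 had 8 counts over all 12 libraries. They summed to 10.5 to 18.1 CPM in the libraries labelled siDRAIC, against 2.55 to 6.53 in siDRAIC-NC. In sihnRNPA2B1 they summed to 3.56 to 4.12 CPM, against 2.47 to 3.50 in sihnRNPA2B1-NC. Their part in the results on the libraries labelled siDRAIC was not tested, and in bulk RNA fewer cells of a type and less RNA per cell cannot be told apart.

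TXNIP RNA set the DRAIC experiment apart from the hnRNPA2B1 experiment, and within the DRAIC experiment it was higher in the libraries labelled siDRAIC. TXNIP (ENSG00000265972; chromosome 1, 145992435 to 145996600, minus strand, GRCh38, GENCODE 29) measured 76.5, 88.9 and 53.6 CPM in the libraries labelled siDRAIC, against 33.8, 23.5 and 31.8 CPM in siDRAIC-NC. In the hnRNPA2B1 experiment it measured 466, 572 and 605 CPM with the siRNA, against 528, 506 and 554 CPM in sihnRNPA2B1-NC. The groups of the DRAIC experiment did not overlap, those of the hnRNPA2B1 experiment did, and each of the 6 libraries of the DRAIC experiment lay below each of the 6 of the other. Means were 73.0 ± 17.9 CPM in the libraries labelled siDRAIC and 29.7 ± 5.46 CPM in siDRAIC-NC (SD, n = 3 each), a log2 fold change of 1.29 (SE 0.22). After hnRNPA2B1 siRNA the mean was 548 ± 72.6 CPM, against 529 ± 23.7 CPM in sihnRNPA2B1-NC, a log2 fold change of 0.02 (SE 0.06).

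ARRDC4, the alpha-arrestin known for sharing the glucose response of TXNIP, had the same order of group means at a lower level. ARRDC4 (ENSG00000140450; chromosome 15, 97960698 to 97973838, plus strand) measured 4.16, 5.38 and 7.73 CPM in the libraries labelled siDRAIC, against 2.87, 1.73 and 2.94 CPM in siDRAIC-NC. It measured 36.5, 43.7 and 46.3 CPM after hnRNPA2B1 siRNA, against 41.2, 38.0 and 42.6 CPM in sihnRNPA2B1-NC. Again the groups overlapped in the hnRNPA2B1 experiment and not in the DRAIC experiment. The log2 fold change was 1.18 (SE 0.31) in the libraries labelled siDRAIC and 0.03 (SE 0.08) after hnRNPA2B1 siRNA. By size of the log2 fold change in the libraries labelled siDRAIC, TXNIP stood 273rd and ARRDC4 361st from the highest of 15986 tested genes.

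The ratio of TXNIP to ARRDC4, both in CPM, was nearly constant in the hnRNPA2B1 experiment, at 12.8, 13.1 and 13.1 with the siRNA and 12.8, 13.3 and 13.0 in its controls. It was 18.4, 16.5 and 6.93 in the libraries labelled siDRAIC and 11.8, 13.6 and 10.8 in siDRAIC-NC. The low value came from replicate 3 labelled siDRAIC, with the least TXNIP and the most ARRDC4 of its group, so TXNIP and ARRDC4 did not follow each other library by library there.

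**Figure D2:**
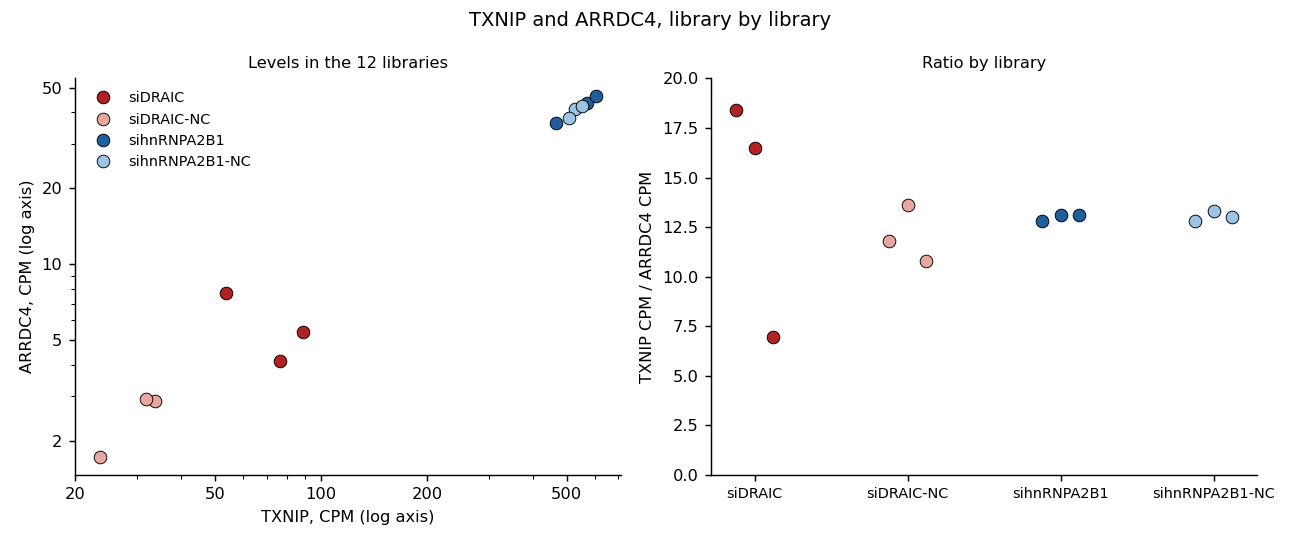
Left, ARRDC4 against TXNIP in CPM for each of the 12 libraries, both axes logarithmic. Right, the ratio of TXNIP to ARRDC4 CPM by library: it lies between 12.8 and 13.3 in the 6 libraries of the hnRNPA2B1 experiment and between 6.93 and 18.4 in the 3 libraries labelled siDRAIC.

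After hnRNPA2B1 siRNA the alpha-arrestins ARRDC3 and ARRDC1 had groups that did not overlap, with ARRDC3 higher and ARRDC1 lower. ARRDC3 (ENSG00000113369; chromosome 5, 91368724 to 91383359, minus strand), which has been tied to the trafficking of adrenergic receptors and of integrin beta-4, measured 184, 179 and 177 CPM after hnRNPA2B1 siRNA, against 83.2, 84.6 and 86.7 CPM in sihnRNPA2B1-NC. The spread within each group was small and the groups lay far apart, with a log2 fold change of 1.05 (SE 0.05), 355th from the highest of 15710 tested genes. In the libraries labelled siDRAIC it measured 50.4, 41.4 and 46.1 CPM, against 61.5, 36.3 and 32.2 CPM in siDRAIC-NC, groups that overlapped (log2 fold change 0.07, SE 0.22). Replicate 1 of siDRAIC-NC was the high one, and without it the log2 fold change was 0.35. The log2 fold change was -0.04 without siDRAIC-NC replicate 2 and -0.11 without siDRAIC-NC replicate 3. Exons of ARRDC3 share 145 bases with the antisense gene ARRDC3-AS1, which measured 0.299 ± 0.130 CPM after hnRNPA2B1 siRNA and 0.285 ± 0.115 CPM in sihnRNPA2B1-NC. The labels do not say whether counting used strand, so reads in the shared bases cannot be assigned to one of them.

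ARRDC1, which recruits the ESCRT machinery to bud vesicles from the plasma membrane, was slightly lower after hnRNPA2B1 siRNA. ARRDC1 (ENSG00000197070; chromosome 9, 137605654 to 137615360, plus strand) measured 40.5, 41.7 and 43.9 CPM with that siRNA, against 51.8, 53.3 and 46.3 CPM in sihnRNPA2B1-NC. These groups did not overlap, and the log2 fold change was -0.30 (SE 0.07). It measured 49.5, 61.9 and 42.7 CPM in the libraries labelled siDRAIC, against 51.9, 60.2 and 53.9 CPM in siDRAIC-NC, which overlapped (log2 fold change -0.13, SE 0.20). Its exons share 29 bases with the antisense gene ARRDC1-AS1, which measured 28.3 ± 1.14 CPM after hnRNPA2B1 siRNA, against 23.4 ± 0.385 CPM in sihnRNPA2B1-NC, and 183 bases with ENSG00000283411 on the same strand.

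ARRDC2 (ENSG00000105643; chromosome 19, 18001132 to 18014102, plus strand), an alpha-arrestin that is less studied, measured 29.4 to 37.6 CPM in the libraries labelled siDRAIC, 26.9 to 31.9 CPM in siDRAIC-NC, 30.4 to 32.1 CPM in sihnRNPA2B1 and 27.2 to 35.1 CPM in sihnRNPA2B1-NC. All neighbouring groups in that order of levels overlapped. Its log2 fold changes were 0.18 (SE 0.19) in the libraries labelled siDRAIC and -0.05 (SE 0.08) after hnRNPA2B1 siRNA, and 442 bases of its exons are shared with ENSG00000279172 on the other strand. ARRDC5, the remaining alpha-arrestin and no member of the 8, had 0 summed counts in the libraries labelled siDRAIC, 2 in siDRAIC-NC, 4 in sihnRNPA2B1 and 2 in sihnRNPA2B1-NC.

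RNA for the glucose-sensing factors themselves varied far less than that of TXNIP, apart from the rare MLXIPL. MLXIP (ENSG00000175727; chromosome 12, 122078722 to 122147347, plus strand) measured 133, 151 and 122 CPM in the libraries labelled siDRAIC, against 113, 121 and 116 CPM in siDRAIC-NC, and 117, 121 and 116 CPM after hnRNPA2B1 siRNA, against 118, 128 and 114 CPM in sihnRNPA2B1-NC. The groups of the DRAIC experiment stood just apart, with a log2 fold change of 0.19 (SE 0.16), and those of the hnRNPA2B1 experiment overlapped, with -0.06 (SE 0.06). MLX (ENSG00000108788; chromosome 17, 42567068 to 42573239, plus strand) measured 43.5, 48.9 and 52.8 CPM in the libraries labelled siDRAIC, against 46.9, 63.6 and 66.8 CPM in siDRAIC-NC, which overlapped (log2 fold change -0.32, SE 0.20). After hnRNPA2B1 siRNA MLX measured 51.1, 50.2 and 52.8 CPM, against 48.8, 54.6 and 53.1 CPM in sihnRNPA2B1-NC (-0.06, SE 0.07). A stretch of 770 exon bases is shared between MLX and PSMC3IP on the opposite strand, which measured 14.0 ± 3.68 CPM in the libraries labelled siDRAIC, against 17.3 ± 0.909 CPM in siDRAIC-NC.

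MLXIPL (ENSG00000009950; chromosome 7, 73593194 to 73624543, minus strand) was near the limit of counting, with 32, 72 and 26 counts in the libraries labelled siDRAIC, against 55, 26 and 42 in siDRAIC-NC. It had 16, 8 and 6 counts after hnRNPA2B1 siRNA, against 12, 8 and 14 in sihnRNPA2B1-NC. Within each experiment the groups overlapped, with log2 fold changes of 0.00 (SE 0.44) and -0.28 (SE 0.55), and every library of the DRAIC experiment lay above every library of the other.

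In the order of group means, neighbouring groups overlapped throughout for ARRDC2, MLXIP and MLX. For ARRDC1 the lowest group, sihnRNPA2B1, did not overlap with the next one, sihnRNPA2B1-NC. For ARRDC3 the order was sihnRNPA2B1, sihnRNPA2B1-NC, siDRAIC and siDRAIC-NC, with an overlap between the last pair only. For TXNIP and ARRDC4 the order was the same, with an overlap between sihnRNPA2B1 and sihnRNPA2B1-NC only.

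**Figure D3:**
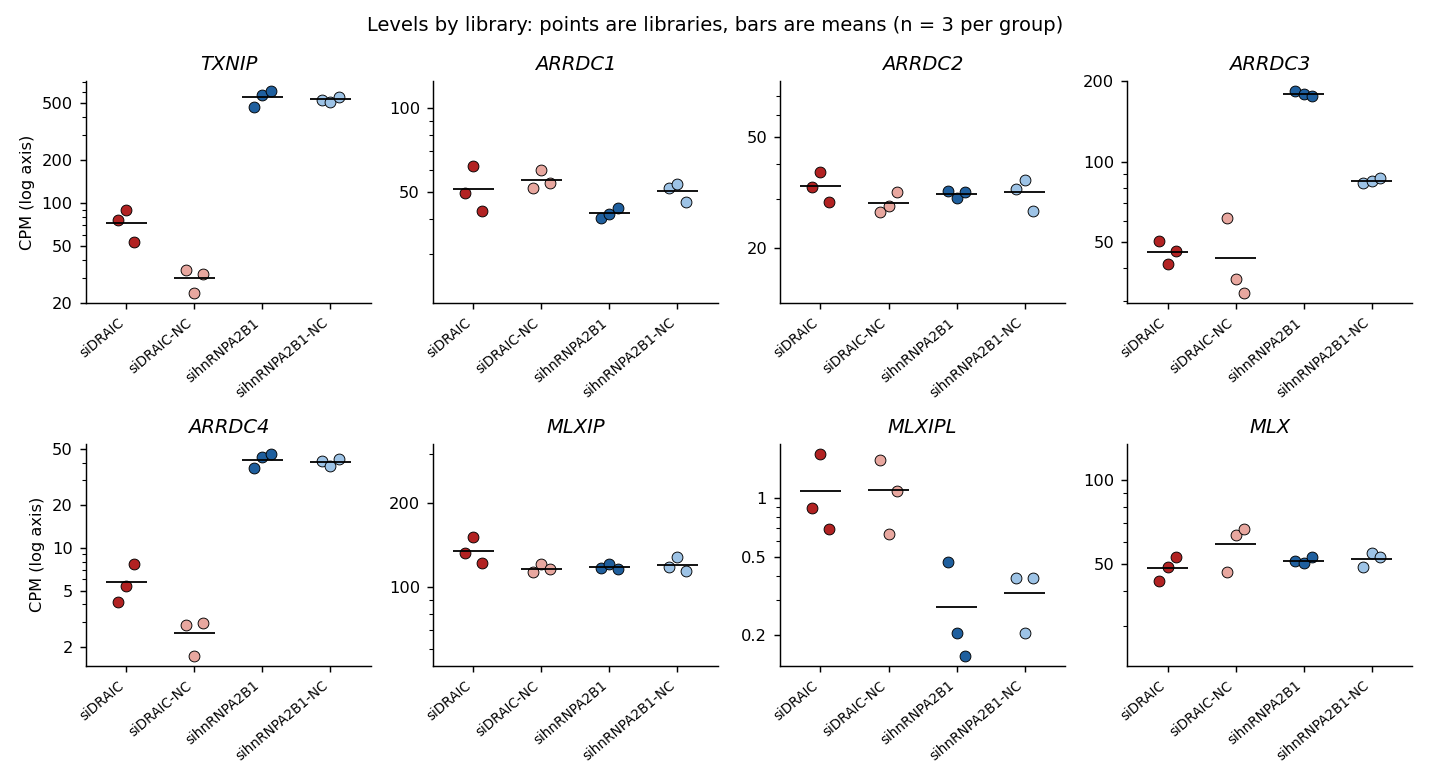
CPM of the 8 genes in each library on logarithmic axes, 3 points per group with the mean as a bar. TXNIP and ARRDC4 sit far lower in both groups of the DRAIC experiment than in the hnRNPA2B1 experiment, MLXIPL sits higher there, and ARRDC3 is highest in sihnRNPA2B1, at 177 to 184 CPM.

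The control groups themselves, both of the same cell line, differed most in TXNIP and ARRDC4 among the 8 genes. TXNIP averaged 29.7 ± 5.46 CPM in siDRAIC-NC and 529 ± 23.7 CPM in sihnRNPA2B1-NC (SD, n = 3 each), a log2 fold change of -4.15 (SE 0.15) that makes it 17.7-fold lower in siDRAIC-NC. ARRDC4 averaged 2.51 ± 0.679 CPM in siDRAIC-NC and 40.6 ± 2.37 CPM in sihnRNPA2B1-NC, 16.1-fold lower in siDRAIC-NC (log2 fold change -4.01, SE 0.20). By log2 fold change they stood 42nd and 50th from the lowest of 15868 tested genes. ARRDC3 averaged 43.4 ± 15.9 CPM in siDRAIC-NC and 84.9 ± 1.77 CPM in sihnRNPA2B1-NC (-0.98, SE 0.20), and MLXIPL averaged 1.10 ± 0.455 CPM in siDRAIC-NC and 0.327 ± 0.107 CPM in sihnRNPA2B1-NC (1.74, SE 0.44). ARRDC1 (0.15, SE 0.14), ARRDC2 (-0.11, SE 0.16), MLXIP (-0.03, SE 0.12) and MLX (0.20, SE 0.18) overlapped between the control groups. The experiment, its control siRNA and its handling cannot be told apart in this comparison.

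CPM per kilobase of exon used the merged length of all annotated exons of a gene, not that of the transcript expressed. It allows a rough comparison between genes only. On that scale TXNIP stood at 8.19 in siDRAIC-NC and 146 in sihnRNPA2B1-NC. In siDRAIC-NC ARRDC1 (14.5), MLX (13.9), ARRDC3 (8.79) and MLXIP (8.38) had higher mean levels per kilobase than TXNIP, ARRDC2 had 6.26, ARRDC4 0.617 and MLXIPL 0.228. In sihnRNPA2B1-NC TXNIP came first, followed by ARRDC3 (17.2), ARRDC1 (13.2), MLX (12.2), ARRDC4 (9.97), MLXIP (8.65), ARRDC2 (6.83) and MLXIPL (0.0680). ARRDC4 RNA per kilobase thus lay below that of MLXIP in siDRAIC-NC and above it in sihnRNPA2B1-NC. The order in sihnRNPA2B1-NC depends on the lengths used, 4.07 kb for ARRDC4 and 13.9 kb for MLXIP.

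Counts of calls among the 8 genes are set here beside those of all genes, where called means a Benjamini-Hochberg adjusted p under 0.05 in edgeR's quasi-likelihood test. In the libraries labelled siDRAIC 1 of 8 was called, TXNIP, upward, where 0.713% of all tested genes were called, 0.582% upward and 0.131% downward. In 3 of 8 (TXNIP, ARRDC4 and MLXIP) the groups did not overlap, as in 15.6% of tested genes. With the replicate number as a block, 8.78% of all tested genes were called. TXNIP (log2 fold change 1.26, SE 0.16) and ARRDC4 (1.17, SE 0.25) were both called in that fit. TXNIP was not called without replicate 2 labelled siDRAIC, without siDRAIC-NC replicate 2 or without siDRAIC-NC replicate 3, though its log2 fold change stayed between 1.08 and 1.47 with any 1 library left out. After hnRNPA2B1 siRNA 2 of 8 were called, ARRDC3 upward and ARRDC1 downward, where 30.4% of tested genes were called, 15.1% upward and 15.4% downward. The same 2 genes had groups that did not overlap, as in 42.0% of tested genes. In a fit of all 12 libraries ARRDC3 alone was called, beside 1.66% of all tested genes. Between the control groups 4 of 8 were called, MLXIPL higher and TXNIP, ARRDC3 and ARRDC4 lower in siDRAIC-NC, where 50.1% of tested genes were called, 25.3% higher and 24.8% lower. Those 4 genes did not overlap between the control groups, as in 59.9% of tested genes. Without siDRAIC-NC replicate 1 the number called was 6, with ARRDC1 and MLX added, beside 63.3% of all tested genes. Since the genes were proposed from these values, nothing is read from these counts. Over all tested genes the median absolute log2 fold change was 0.22 in the libraries labelled siDRAIC and 0.20 after hnRNPA2B1 siRNA. Libraries within a group differed more in the DRAIC experiment, so the shares called do not rank the sizes of change.

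The change in the DRAIC experiment less that in the hnRNPA2B1 experiment, fitted on all 12 libraries, was 1.23 (SE 0.23) on the log2 scale for TXNIP, 1.12 (SE 0.30) for ARRDC4 and -1.01 (SE 0.23) for ARRDC3. For the other 5 it lay between -0.30 (MLX, SE 0.22) and 0.24 (MLXIPL, SE 0.70). Of the 8, TXNIP was called, where 0.211% of tested genes were. The replicate block here pairs libraries by number in both experiments. With it TXNIP (1.22), ARRDC4 (1.12) and ARRDC3 (-0.97) were called, beside 1.51% of all tested genes. TXNIP lost the call in 10 of the 12 fits that each leave out 1 library, with differences of 1.07 to 1.41.

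**Figure D4:**
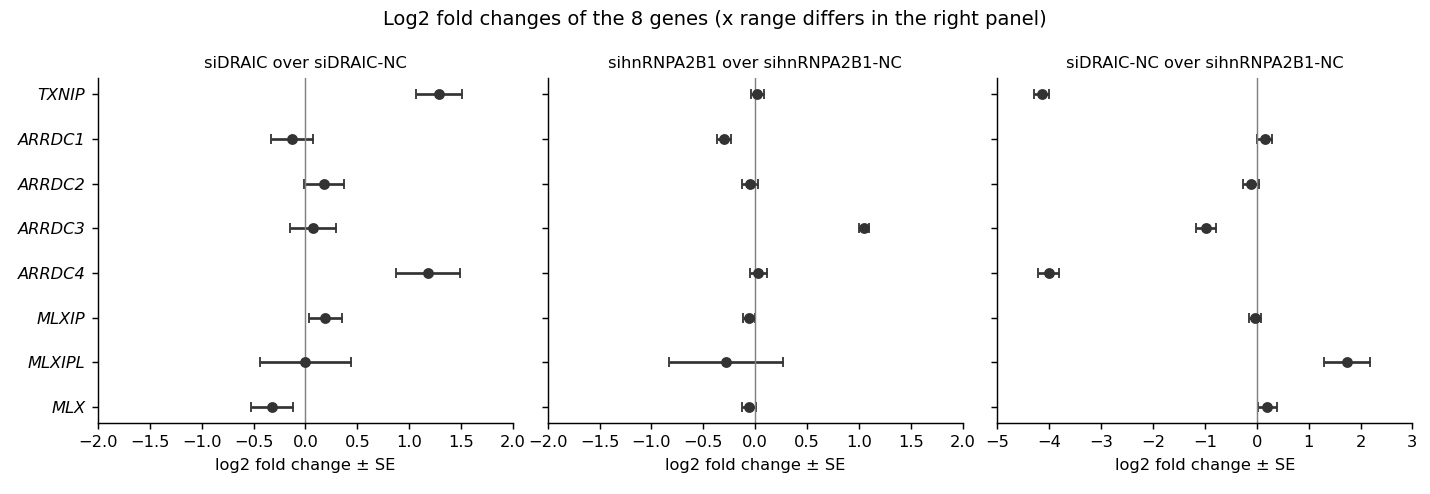
Log2 fold changes of the 8 genes with their standard errors in the 3 comparisons, from edgeR with no replicate block. TXNIP (1.29) and ARRDC4 (1.18) stand to the right in the libraries labelled siDRAIC, ARRDC3 (1.05) after hnRNPA2B1 siRNA, and TXNIP (-4.15) and ARRDC4 (-4.01) far to the left between the control groups, on a wider axis.

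The genes whose pattern was most like that of TXNIP were ranked by the lower of the Pearson correlations of log2 CPM within each experiment, over 6 libraries each, among 10248 genes at a mean of 5 CPM or more. These correlations describe 6 libraries that share a table and a pair of groups, and carry no p. The 5 at the top were the Polycomb RING finger gene PCGF3 (0.887 in the DRAIC experiment, 0.911 in the hnRNPA2B1 experiment), BCL2L13, a mitochondrial outer membrane protein of the BCL2 family (0.847 and 0.844), TRIM5, a restriction factor of retroviral capsids (0.809 and 0.944), the antiproliferative gene BTG2 (0.804 and 0.885) and the prolyl isomerase PIN4 (0.880 and 0.792). ARRDC4 came 7th, at 0.758 and 0.986. Over all 12 libraries BTG2 (0.984), ARRDC4 (0.984) and BCL2L13 (0.950) still ran with TXNIP. PCGF3 (-0.383), TRIM5 (-0.752) and PIN4 (-0.811) had negative correlations there, PCGF3 with group means of 39.4 to 44.4 CPM. Correlations over 12 libraries also take in the gap between the experiments, and 50.1% of tested genes were called between the control groups. BTG2 averaged 27.4 ± 1.34 CPM with the label siDRAIC and 17.9 ± 1.90 CPM in siDRAIC-NC, and 60.7 ± 4.68 CPM in sihnRNPA2B1 and 60.6 ± 3.56 CPM in sihnRNPA2B1-NC (SD, n = 3 each).

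Genes around TXNIP and the glucose sensors, none of them among the 8, were tested as 8 lists holding 112 genes. In the libraries labelled siDRAIC, edgeR with no block called 0 of the 92 tested, beside 0.713% of all tested genes. DESeq2 called 3, beside 2.45% of all tested genes. In edgeR 12 of the 92 had an unadjusted p under 0.05, 6 of them upward. The share of all tested genes under that unadjusted p was not counted. The median log2 fold change of the 92 was -0.08, beside 0.00 for all tested genes. With the replicate block, 12 of the 92 were called, 7 up and 5 down, beside 8.78% of all tested genes in that fit, which rests on the numbers pairing these libraries. In that fit the MYC antagonist MXD4 rose (log2 fold change 1.06, SE 0.15, edgeR adjusted p = 1.79e-09), as did the glucose transporter SLC2A2 (0.89, SE 0.17, edgeR adjusted p = 1.03e-05) and the forkhead factor FOXO4 (1.07, SE 0.25, edgeR adjusted p = 0.000937). The transporter SLC2A1 (-0.48, SE 0.14, edgeR adjusted p = 0.0158), hexokinase HK2 (-0.50, SE 0.17, edgeR adjusted p = 0.0372) and the cytokine IL18 (-0.78, SE 0.22, edgeR adjusted p = 0.00931) fell. The others were HECW1, HECW2, TXNRD3 and MXI1 upward and SRXN1 and GLRX2 downward, and all 12 are named here after their values were seen. SLC2A2 measured 44.9, 46.0 and 44.7 CPM in the libraries labelled siDRAIC, against 31.8, 24.7 and 17.4 CPM in siDRAIC-NC, with no overlap. FOXO4 measured 2.94 to 6.65 CPM with the label siDRAIC and 1.78 to 3.61 CPM in its controls, groups that overlapped. In edgeR with no block, the adjusted p was 0.0954 for SLC2A2, 0.169 for MXD4, 0.176 for IL18 and 0.23 for FOXO4. It was 0.279 for SLC2A1 and 0.294 for HK2, so all of these genes missed the threshold there. Without siDRAIC-NC replicate 1 and with no block, 6 of 94 tested were called, 3 up and 3 down. That is 6.38%, close to the 6.26% of all tested genes in the same fit.

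After hnRNPA2B1 siRNA 38 of 92 tested pathway genes were called by edgeR, 15 up and 23 down, with a median log2 fold change of -0.04 over all 92, beside 0.01 for all tested genes. That is 41.3% of the lists, beside 30.4% of all tested genes. In a fit of all 12 libraries, which share one estimate of spread, 3 of 96 were called, SLC2A2, NEDD4L and FLCN, beside 1.66% of all tested genes.

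In the list of glucose uptake and first steps of glucose use, 8 of 13 tested genes were called after hnRNPA2B1 siRNA, 4 in each direction. The low-affinity glucose transporter SLC2A2 rose to 6.77 ± 0.910 CPM, against 3.39 ± 0.316 CPM in sihnRNPA2B1-NC (log2 fold change 0.96, SE 0.15, edgeR adjusted p = 1.66e-05). The basal transporter SLC2A1 rose by 0.28 (SE 0.06, edgeR adjusted p = 0.000377) on the log2 scale. Among glucose response targets, the genes known to answer MondoA or ChREBP, 4 of 14 were called, 2 in each direction. Malic enzyme ME1 rose by 0.43 and HK2 by 0.27, and the repressor KLF10 fell by 0.15, a call lost without sihnRNPA2B1 replicate 1, sihnRNPA2B1 replicate 2 or sihnRNPA2B1-NC replicate 1.

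Of 10 genes known to regulate TXNIP transcription 8 were called after hnRNPA2B1 siRNA, 3 up and 5 down. TXNIP itself stood at 548 ± 72.6 CPM, against 529 ± 23.7 CPM in sihnRNPA2B1-NC, and a link between the regulators and TXNIP was not tested. The vitamin D receptor VDR fell to 9.65 ± 1.20 CPM, against 16.9 ± 0.419 CPM in sihnRNPA2B1-NC (log2 fold change -0.84, SE 0.10, edgeR adjusted p = 3.44e-07). The zinc finger factor KLF6 fell by 0.38 and the glucocorticoid receptor NR3C1 rose by 0.32. In the AMPK and hexosamine list, 6 of 15 were called, 3 in each direction: folliculin (FLCN) fell to 63.8 ± 5.56 CPM, against 96.9 ± 3.41 CPM in sihnRNPA2B1-NC (-0.64, SE 0.07, edgeR adjusted p = 1.49e-08), the O-GlcNAc transferase OGT rose by 0.44 and the AMPK catalytic subunit PRKAA2 by 0.42.

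The thioredoxin system had 5 of 14 tested genes called after hnRNPA2B1 siRNA, 1 up and 4 down. Mitochondrial thioredoxin reductase TXNRD2 fell by 0.55 and thioredoxin TXN, the binding partner of TXNIP, by 0.23, and the cytosolic reductase TXNRD1 rose by 0.20. Among arrestins and NEDD4 family ligases 4 of 15 were called, 1 up and 3 down. The ligases NEDD4L, SMURF1 and WWP2 fell by 0.48, 0.24 and 0.25 on the log2 scale, NEDD4L to 157 ± 13.8 CPM, against 213 ± 7.68 CPM in sihnRNPA2B1-NC. In the MYC and MAX network, whose proteins share MLX or MAX as partners, 4 of 9 were called, with the antagonists MXD4 (0.49) and MXI1 (0.39) up and MXD1 (-0.24) among those down. The 3 tested NLRP3 inflammasome genes had log2 fold changes between -0.32 and 0.09. The call of MXD1 was lost without sihnRNPA2B1 replicate 1, sihnRNPA2B1 replicate 2 or sihnRNPA2B1-NC replicate 1.

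Between the control groups 68 of 92 pathway genes were called, 28 higher and 40 lower in siDRAIC-NC, or 73.9% of the lists beside 50.1% of all tested genes. The list median was -0.16, beside 0.01 for all tested genes. Of 15 glucose response targets 11 were called, 9 higher and 2 lower in siDRAIC-NC, with a list median of 0.67, while TXNIP and ARRDC4 were lower there. Fatty acid synthase FASN averaged 1017 ± 176 CPM in siDRAIC-NC and 347 ± 30.0 CPM in sihnRNPA2B1-NC (log2 fold change 1.55, SE 0.13, edgeR adjusted p = 2.73e-05). Ketohexokinase KHK averaged 3.14 ± 0.213 CPM in siDRAIC-NC and 0.160 ± 0.0669 CPM in sihnRNPA2B1-NC (4.28, SE 0.35, edgeR adjusted p = 2.44e-05). KLF10 averaged 95.7 ± 4.76 CPM in siDRAIC-NC and 333 ± 6.75 CPM in sihnRNPA2B1-NC (-1.78, SE 0.11, edgeR adjusted p = 7.46e-06). PKLR, the pyruvate kinase gene of liver and red cells, had 36, 18 and 16 counts in siDRAIC-NC and 0 in all 3 sihnRNPA2B1-NC libraries, so its fitted fold change depends on the prior count and is no bound. It was singled out after its values were seen.

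Glucose uptake genes were called in both directions between the control groups, 6 higher and 5 lower of 13. SLC2A2 averaged 24.6 ± 7.19 CPM in siDRAIC-NC and 3.39 ± 0.316 CPM in sihnRNPA2B1-NC, and phosphoglucose isomerase GPI averaged 415 ± 34.4 CPM in siDRAIC-NC and 155 ± 9.71 CPM in sihnRNPA2B1-NC, with log2 fold changes of 2.86 (edgeR adjusted p = 1.5e-05) and 1.44 (edgeR adjusted p = 4.86e-05). In the thioredoxin system 8 were higher and 4 lower of 14, among them peroxiredoxin PRDX1 (1.70), glutaredoxin GLRX (2.57) and nucleoredoxin NXN (-2.04). In the list of AMPK and hexosamine genes 10 of 14 were called, all lower in siDRAIC-NC, including GFPT1, the first enzyme of the hexosamine pathway (-1.44), the AMPK subunit PRKAG2 (-1.32) and OGT (-1.22). In the list of TXNIP regulators 6 of 10 were called, again all lower, including KLF6 (-1.58), FOXO3 (-0.89) and NR3C1 (-1.10). The MYC and MAX network had 2 higher and 4 lower of 9: MYC averaged 233 ± 15.5 CPM in siDRAIC-NC and 668 ± 23.5 CPM in sihnRNPA2B1-NC (-1.50, edgeR adjusted p = 2.37e-05), MXD1 was lower by 2.97 on the log2 scale and MXD3 higher by 1.77. Arrestins and ligases had 2 higher and 9 lower of 15, including NEDD4L (-1.70), the ESCRT subunit TSG101 (-0.81) and beta-arrestin ARRB1 (2.55). Of 3 tested inflammasome genes, the pore-forming GSDMD was higher (1.13) and the NLRP3 partner NEK7 lower (-0.67), and NEK7 was not called without siDRAIC-NC replicate 2, siDRAIC-NC replicate 3 or sihnRNPA2B1-NC replicate 3.

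For the difference between the changes of the DRAIC and the hnRNPA2B1 experiments, edgeR called 0 of 96 tested pathway genes, beside 0.211% of all tested genes. An unadjusted p under 0.05 was found in 11 of the 96, and the share of all tested genes under it was not counted. DESeq2 called 3, beside 1.14% of all genes, and edgeR with the replicate block 3, beside 1.51%, all of them negative differences and HK2 and SLC2A1 among them in both.

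**Figure D5:**
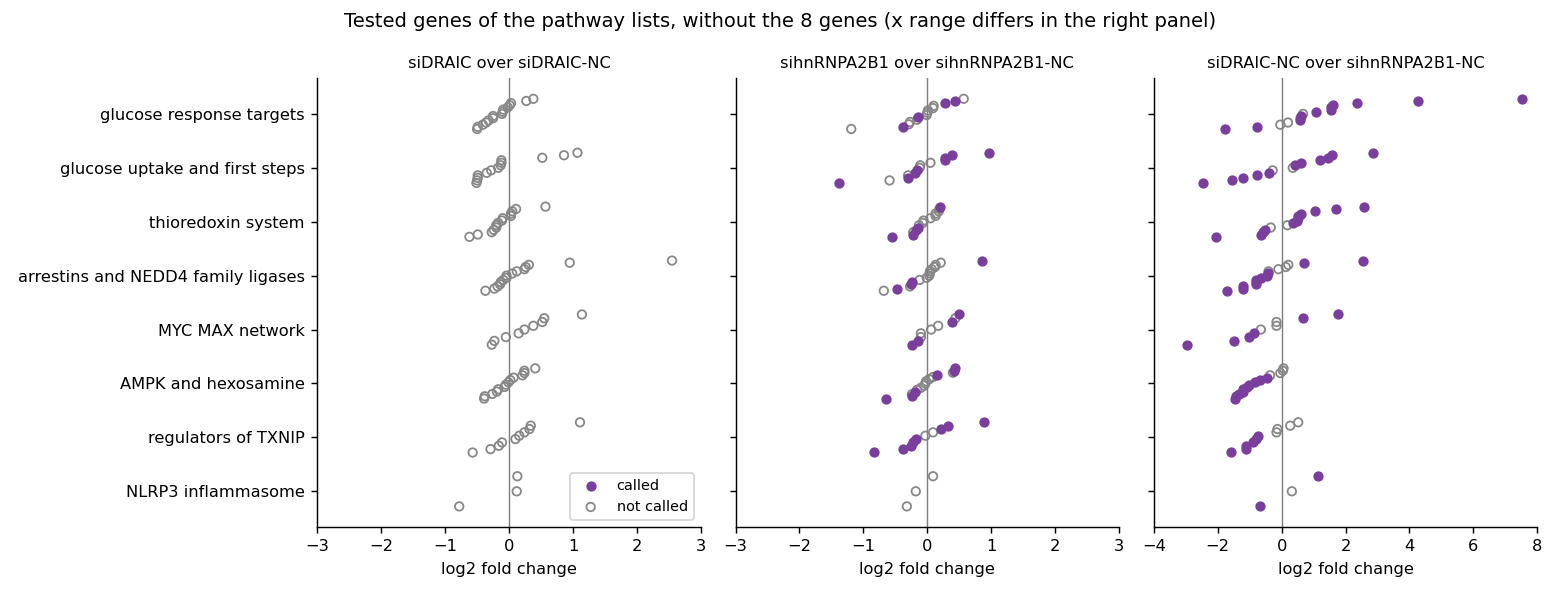
Log2 fold changes of the tested genes of the 8 pathway lists in the 3 comparisons, 1 point per gene, filled where edgeR's adjusted p was under 0.05. The fits shown use no replicate block. No point is filled in the libraries labelled siDRAIC, where a fit with the block called 12 of 92, beside 8.78% of all tested genes. After hnRNPA2B1 siRNA 38 genes are called, and 68 between the control groups. In the latter the AMPK and hexosamine list and the TXNIP regulators have filled points on the left only. HK2 stands in both glucose lists, and the point beyond 6 is PKLR, whose fold change is no bound.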

How the data were processed

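RNA-seq libraries of 12 samples in 4 groups of 3 were analysed. The authors deposited raw read counts per Ensembl gene in a pair of tables, one for the DRAIC and one for the hnRNPA2B1 experiment, with the same 60617 IDs. A symbol was found for 60261 of them, and 58542 are in GENCODE 29. There were 0 lines that name no gene. Per the labels' protocols, RNA was extracted with RNAiso Plus and libraries were made with a TruSeq kit. Per the submitters' processing notes, reads went through fastp 0.23.2 and STAR 2.7.10a, with StringTie and DESeq2 also listed and hg38 as the build. Which counter and annotation were used, and whether strand was, were not given in the sources used here.

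All members, lists and tests were chosen with earlier results of these data known. Each comparison was fitted in edgeR 4.0.16 (R 4.3.3): filterByExpr with a minimum count of 10, TMM scaling, the robust quasi-likelihood test, two-sided, and Benjamini-Hochberg adjustment over all tested genes. The tested genes numbered 15986 in the DRAIC experiment, 15710 in the hnRNPA2B1 experiment, 15868 between the control groups and 17091 in the fit of 12 libraries. The control groups were compared on raw counts across the tables. Standard errors are approximate, from dividing each absolute log2 fold change by the root of its F statistic. CPM are counts scaled to the library total, and log2 CPM for likeness used a prior count of 2. The scripts were tested on simulated data. For each list and comparison up to 3 called genes with the smallest p are named, and 1 called gene of the lists is counted but not reported here by name. Libraries of a group differed by 30.3 to 139.8 in chi-square per degree of freedom in the DRAIC experiment and by 4.94 to 16.9 in the hnRNPA2B1 experiment. None was counted as a copy.

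Alternatives were RLE size factors, DESeq2 1.42.0, no low-count filter, all 12 libraries in 1 fit, the replicate block and each library left out in turn. Correlations of deviations from the group means for same-numbered libraries were 0.489, 0.227 and 0.277 in the DRAIC experiment, all above the highest other pair at 0.103, so the numbers are taken to pair those libraries. For same-numbered libraries the values were -0.0117, -0.0242 and -0.0456 in the hnRNPA2B1 experiment and -0.0174, 0.118 and -0.0993 between the control groups. Those libraries are not taken as paired. The replicate block was still fitted by number there, and in both experiments for the difference. The main fits use no block, so in the DRAIC experiment they leave the pairing out. With the block 1404 genes and 12 pathway genes were called in the libraries labelled siDRAIC, against 114 and 0 in the main fit. Protein sequences were not used here.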

Additional observations from a re-analysis of the deposited data

Results flagged for a closer look

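HK2 and SLC2A1 are listed because in each the groups lay apart in opposite directions in the 2 experiments. They were picked on these same shifts, so the p-values for the difference are no independent test. Groups did not overlap in 15.6% of tested genes in the DRAIC experiment and 42.0% in the hnRNPA2B1 experiment. The share with opposite directions was not counted. HK2 measured 26.4, 24.5 and 31.1 CPM in the libraries labelled siDRAIC, against 38.9, 35.2 and 39.8 CPM in siDRAIC-NC, and 81.5, 82.9 and 79.1 CPM after hnRNPA2B1 siRNA, against 65.9, 63.9 and 67.7 CPM in sihnRNPA2B1-NC. The difference of its changes was -0.80 on the log2 scale (SE 0.16) and missed the threshold in edgeR (adjusted p = 0.06). The replicate block for the difference pairs libraries by number in both experiments, although the numbers are not taken to pair the hnRNPA2B1 libraries. With that block the difference for HK2 was called (-0.81, edgeR adjusted p = 0.0131). It was also called with DESeq2 (adjusted p = 0.000522) and without the low-count filter (edgeR adjusted p = 0.0344). It was called in 2 of the 12 edgeR fits that leave out 1 library, those without siDRAIC replicate 3 and without siDRAIC-NC replicate 1, and the adjusted p over the 12 ran from 0.0122 to 0.223.

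SLC2A1 measured 146, 157 and 151 CPM in the libraries labelled siDRAIC, against 179, 222 and 222 CPM in siDRAIC-NC, and 357, 334 and 353 CPM after hnRNPA2B1 siRNA, against 275, 303 and 262 CPM in sihnRNPA2B1-NC. Its difference was -0.80 (SE 0.17) and missed the threshold in edgeR (adjusted p = 0.0884). It was called with the replicate block (-0.79, edgeR adjusted p = 0.0184), with DESeq2 (adjusted p = 0.015) and without the low-count filter (edgeR adjusted p = 0.00314). Of the 12 edgeR fits that leave out 1 library, the one without siDRAIC-NC replicate 1 called it, and the adjusted p over the 12 ran from 0.00136 to 0.287.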

How the results depend on the processing

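In the libraries labelled siDRAIC the number of genes called, 114 in edgeR, was 392 with DESeq2, 665 in a fit of all 12 libraries, 520 without the low-count filter and 1404 with the replicate block. Pathway genes called there, 0 in edgeR, numbered 3, 8, 4 and 12 under the same alternatives. After hnRNPA2B1 siRNA the fit of all 12 libraries gave 283 genes and 3 pathway genes, against 4781 and 38. For the difference between the experiments, 36 genes and 0 pathway genes, DESeq2 gave 194 and 3, no filter 263 and 4, and the replicate block 258 and 3. Leaving out 1 library gave 9 to 1035 genes and 0 to 6 pathway genes in the libraries labelled siDRAIC, the 1035 without siDRAIC-NC replicate 1 and the 9 without siDRAIC-NC replicate 2. It gave 3318 to 5500 and 25 to 44 after hnRNPA2B1 siRNA, 5860 to 10376 and 50 to 78 between the control groups, and 9 to 349 and 0 to 4 for the difference. The cause of these shifts was not tested. Of the pathway genes named by rule, none of the 20 after hnRNPA2B1 siRNA or the 22 between the control groups changed sign. Of those named between the control groups 21 of 22 kept their call in all 11 alternatives, and of those named after hnRNPA2B1 siRNA 3 of 20 did, the fit of 12 libraries being the alternative that lost each of the other 17. KLF10 and MXD1 also lost it with some libraries left out, and KLF10 with the replicate block. Groups of 3 libraries limit the precision, and for MLXIPL and DRAIC so does the depth.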
